A study of Mus musculus with 7 samples.

Results

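The 28 genes described here encode the enzymes that make serine, load its carbon onto folate and build purine and pyrimidine nucleotides. They were chosen by name, with earlier results of these data known. Their values were taken from array probes annotated with 1 gene symbol. For 26 of the 28 such a probe was on the array, where the brightest of several was kept, and all 26 were bright enough to be tested among 16136 of the 21515 genes with such a probe; Pfas and Impdh2 were not analysed here. The arrays measured total RNA of germinal centre B cells, sorted from mouse spleen as B220+CD95+GL7+ cells on day 7 of the response to sheep red blood cells. Spleen cells came from RRas2-deficient mice (3 arrays) and from wild-type mice (WT, 4 arrays), all immunized by the intraperitoneal route. Age, sex, strain and the deleted part of Rras2 are not given in the sources used here, and 1 label field writes Rras where the others write RRas2. R-Ras2 is a small GTPase of the RAS family, and the stated purpose was to find mRNA differences between the genotypes. Labels call the samples biological replicates and name no animals, so p-values measure only the spread between these samples.

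Germinal centre B cells are among the fastest dividing cells of the body, and each division needs a new set of nucleotides for DNA and RNA. Serine made from a glycolytic intermediate gives its hydroxymethyl carbon to tetrahydrofolate, and the folate cycle of cytosol and mitochondria passes that carbon on to the purine ring and to thymidylate. Purines are assembled on ribose phosphate in a chain of steps that ends in inosine monophosphate (IMP), from which AMP and GMP branch. Pyrimidines are built as a free ring first and joined to ribose phosphate later, and ribonucleotide reductase then turns ribonucleotides into the deoxynucleotides of DNA.

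Levels below are log2 intensities normalized by the authors, so a difference of 1 is a doubling, and levels of different genes are not comparable because their probes differ. Values on single arrays are given in the order of the replicate number. A difference is always RRas2-deficient minus WT, and the error after it is the moderated standard error of limma, a linear model fitted to all 16136 genes. The adjusted p is limma's after Benjamini-Hochberg correction over those genes.

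No gene of the 26 passed the test between RRas2-deficient and WT germinal centre B cells. With 0 of 26 members past an adjusted p of 0.05 (limma), the background was 2 of 16136 genes, or 0.0124%. At an unadjusted limma p under 0.05 the count was also 0 of 26, against 0.818% of all genes tested. The median standard error was 0.40 over the members and 0.16 over all genes tested, so this test was less precise for the members. No member separated the genotypes without overlap, which 1.08% of all genes did. Means were lower in RRas2-deficient cells for 19 members and higher for 7, while 48.4% of all genes tested had a lower mean there. The median difference of the members was -0.093, against 0.0049 over all genes tested, and single members ran from -0.28 (Shmt2) to 0.24 (Prps2). The adjusted limma p of every member was 1.00. In this model, which takes no account of the array sets described below, the direction rested on single arrays. Without WT replicate 3 the mean was higher in RRas2-deficient cells for 25 of 26 members (median 0.22), and without RRas2-deficient replicate 2 for 23 (median 0.21). Without WT replicate 4 it was higher for 16 (median 0.040). With array set as a block, the same omissions left lower estimates for 19, 24 and 22 members, in that order.

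**Figure D1:**
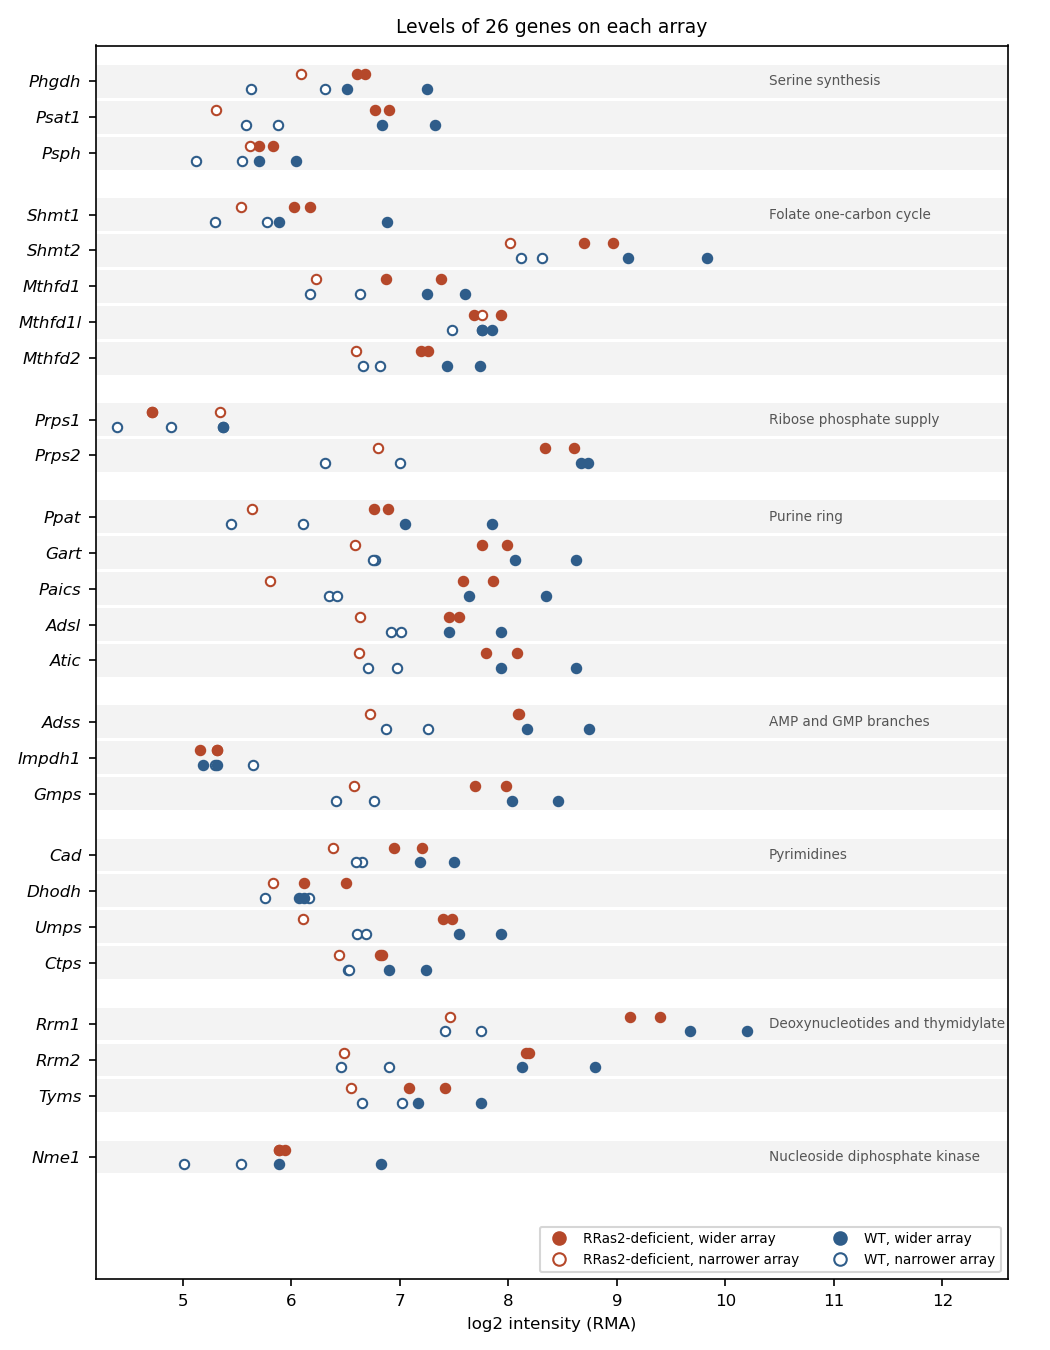
Log2 intensity (x axis) of the 26 genes (y axis, grouped by role) on each array, with RRas2-deficient arrays above WT arrays in each row. Filled points are the 4 arrays with the wider distribution of values and open points the 3 narrower ones. For 21 genes all filled points lie to the right of all open points, and in no gene do the genotypes separate.

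The arrays fell into sets by the spread of their values. The interquartile range of all log2 values was 2.73, 2.40 and 2.69 on RRas2-deficient arrays and 2.37, 2.49, 2.91 and 2.78 on WT arrays. At the widest gap this parts 4 wider arrays (RRas2-deficient replicates 1 and 3, WT replicates 3 and 4) from 3 narrower ones (RRas2-deficient replicate 2, WT replicates 1 and 2). The split was taken from the values, no label names it, and it serves below as a block. The targeted gene Rras2 read 6.93, 6.68 and 7.12 on RRas2-deficient arrays, against 7.13, 7.41, 8.66 and 8.39 on WT arrays. These groups did not overlap, as for 1.08% of all genes tested. The difference of -0.99 ± 0.39 did not pass (limma adjusted p = 1.00). With array set as a block it was -1.13 ± 0.20 and did not pass either (limma adjusted p = 0.296). Whether the Rras2 probe lies in the part of the gene that is missing is not given. Of 14 listed B cell and germinal centre markers 11 were measured. Cd79a, part of the B cell receptor, lay between 11.32 and 12.08 and the germinal centre factor Bcl6 between 9.07 and 10.02. Other germinal centre markers differed more between the array sets. Rgs13 read 8.59, 5.86 and 8.60 on RRas2-deficient arrays, against 6.44, 6.40, 9.59 and 8.91 on WT arrays, and the gap between wider and narrower arrays was 2.69 for Rgs13, 1.51 for S1pr2 and 1.27 for the sort marker gene Fas. The 7 measured T cell markers averaged 3.93, 4.12 and 4.12 on RRas2-deficient arrays and 4.63, 4.17, 3.90 and 4.10 on WT arrays. WT replicate 1 had the highest average, while the others lay nearer the limit of 3.48 under which genes were called dim. WT replicate 3 also stood apart in sex-linked genes, with Xist at 6.61 there and at 9.43 to 10.29 on the other 6 arrays. The Y-linked Kdm5d, Eif2s3y and Uty read 6.48, 6.75 and 5.93 on WT replicate 3. WT replicate 1 was next highest for each, at 4.97, 4.40 and 4.31, and had the lowest Xist of the other 6 arrays.

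None of the 3 enzymes of serine synthesis passed the test between genotypes. Phgdh, which opens the pathway by oxidising 3-phosphoglycerate, read 6.60, 6.09 and 6.68 in RRas2-deficient cells, against 6.32, 5.63, 7.25 and 6.51 in WT cells. The difference was 0.032 ± 0.37, and the WT arrays alone spanned more than the deficient ones. Psat1, the transaminase of the second step, read 6.77, 5.30 and 6.90 in RRas2-deficient cells, against 5.58, 5.88, 7.32 and 6.84 in WT cells (-0.080 ± 0.56). It was low on the 3 narrower arrays in both genotypes and high on the 4 wider ones, with a gap of 1.37 between the means of these sets. Psph, the phosphatase that releases serine, read 5.70, 5.62 and 5.83 in RRas2-deficient cells, against 5.55, 5.12, 6.05 and 5.70 in WT cells. Its difference of 0.11 ± 0.21 had a 95% interval of -0.39 to 0.62.

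The folate one-carbon cycle holds the gene with the largest difference of the 26. Shmt2, the mitochondrial hydroxymethyltransferase that moves carbon from serine to folate, read 8.96, 8.01 and 8.70 in RRas2-deficient cells, against 8.11, 8.31, 9.83 and 9.10 in WT cells. Group means were 8.56 ± 0.49 (SD, n = 3) in RRas2-deficient cells and 8.84 ± 0.79 (SD, n = 4) in WT cells, and the difference of -0.28 ± 0.45 (1.22-fold lower, limma adjusted p = 1.00) was smaller than the spread within either group. WT replicate 3, at 9.83, was the highest array. Its cytosolic counterpart Shmt1 read 6.18, 5.54 and 6.02 in RRas2-deficient cells, against 5.30, 5.78, 6.89 and 5.89 in WT cells, with WT replicate 3 again highest (-0.050 ± 0.37).

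Among the enzymes that oxidise and reduce the folate-bound carbon, the cytosolic trifunctional enzyme Mthfd1 read 6.87, 6.23 and 7.38 in RRas2-deficient cells, against 6.17, 6.63, 7.60 and 7.25 in WT cells (-0.088 ± 0.41). Mthfd2, the mitochondrial dehydrogenase and cyclohydrolase of proliferating cells, read 7.26, 6.60 and 7.20 in RRas2-deficient cells, against 6.82, 6.66, 7.74 and 7.43 in WT cells (-0.15 ± 0.31). In both genes every wider array read above every narrower one, and the genotypes overlapped. Mthfd1l, which releases formate from mitochondria, was the flattest of the 5, at 7.68, 7.76 and 7.93 in RRas2-deficient cells and 7.48, 7.76, 7.85 and 7.76 in WT cells. The difference of 0.078 ± 0.12 carried the narrowest 95% interval of all members, -0.20 to 0.36, and 3 arrays held the identical value.

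Phosphoribosyl pyrophosphate synthetases activate ribose phosphate for both nucleotide classes. The genes Prps1 and Prps2 both lie on the X chromosome. Prps2 had the highest positive difference of the 26, 0.24 ± 0.74, with 8.34, 6.80 and 8.61 in RRas2-deficient cells and 6.31, 7.00, 8.67 and 8.73 in WT cells. Both wider arrays of either genotype read 8.34 or above and the narrower ones 7.00 or below, and the 95% interval ran from -1.52 to 2.00. Prps1 read 4.71, 5.34 and 4.72 in RRas2-deficient cells, against 4.39, 4.89, 5.37 and 5.37 in WT cells (-0.084 ± 0.29). Its high arrays were RRas2-deficient replicate 2 and WT replicates 3 and 4, which cuts across the array sets. Xist, also X-linked, was low on WT replicate 3, and the part of this in the values of both genes was not tested.

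All 5 measured enzymes of the purine ring had lower means in RRas2-deficient cells, none past the test. Ppat, the amidotransferase that commits ribose phosphate to purines, read 6.89, 5.64 and 6.76 in RRas2-deficient cells, against 5.45, 6.11, 7.85 and 7.05 in WT cells (-0.18 ± 0.61). Paics, a bifunctional carboxylase and synthetase of the middle steps, read 7.58, 5.80 and 7.86 in RRas2-deficient cells, against 6.35, 6.42, 8.35 and 7.64 in WT cells (-0.11 ± 0.68). RRas2-deficient replicate 2 was the lowest array for Paics and WT replicate 1 for Ppat, and WT replicate 3 was the highest for both.

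The pair sits side by side on chromosome 5 on opposite strands, and in RefSeq (GRCm38.p6) the 5′ ends overlap by 277 bases. Their promoters are shown because both genes read higher on every wider array, with gaps of 1.41 (Ppat) and 1.67 (Paics) between the means of the wider and narrower sets; Rrm1, with the largest such gap (2.06), and Shmt2, with the largest genotype difference, follow for comparison. Each window runs 5′ to 3′ from 250 bases before to 50 after the annotated start, at chr5:76951529-76951828 (minus strand) for Ppat, chr5:76951052-76951351 (plus) for Paics, chr7:102441445-102441744 (plus) for Rrm1 and chr10:127522395-127522694 (minus) for Shmt2. Capitals mark matches on either strand to 4 motifs, namely CACGTG (the E-box bound by MYC and MAX), TGATGNAA (the ATF4 composite element), TTTNNCGC (a loose E2F pattern) and CCAAT (NF-Y). N stands for any base, so TTTNNCGC also takes in strings outside the narrower E2F consensus.
Ppat: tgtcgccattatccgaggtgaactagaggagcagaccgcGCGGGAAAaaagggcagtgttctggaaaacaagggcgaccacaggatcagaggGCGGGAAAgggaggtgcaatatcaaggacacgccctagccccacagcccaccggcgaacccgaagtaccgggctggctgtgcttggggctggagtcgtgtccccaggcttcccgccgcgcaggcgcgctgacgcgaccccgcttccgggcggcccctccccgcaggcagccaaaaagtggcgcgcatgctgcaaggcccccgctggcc
Paics: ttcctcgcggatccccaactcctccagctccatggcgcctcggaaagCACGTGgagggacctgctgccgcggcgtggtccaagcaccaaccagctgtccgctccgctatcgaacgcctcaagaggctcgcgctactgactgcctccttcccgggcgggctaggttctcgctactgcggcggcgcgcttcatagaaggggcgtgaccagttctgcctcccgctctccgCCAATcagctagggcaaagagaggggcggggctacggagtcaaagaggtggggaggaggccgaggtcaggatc
Rrm1: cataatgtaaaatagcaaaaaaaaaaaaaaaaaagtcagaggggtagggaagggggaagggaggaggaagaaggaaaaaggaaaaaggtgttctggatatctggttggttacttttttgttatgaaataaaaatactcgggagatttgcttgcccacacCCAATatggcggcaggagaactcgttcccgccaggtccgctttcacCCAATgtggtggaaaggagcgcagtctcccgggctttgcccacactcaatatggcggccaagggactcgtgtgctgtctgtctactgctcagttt
Shmt2: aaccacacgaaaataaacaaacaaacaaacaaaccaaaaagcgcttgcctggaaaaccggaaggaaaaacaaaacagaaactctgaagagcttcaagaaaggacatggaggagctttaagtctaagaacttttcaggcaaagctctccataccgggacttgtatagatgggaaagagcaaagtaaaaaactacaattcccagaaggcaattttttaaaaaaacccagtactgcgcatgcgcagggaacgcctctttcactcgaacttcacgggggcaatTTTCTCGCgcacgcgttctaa
In these 4 windows the capitals do not overlap.

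The 2 matches in Ppat are to TTTNNCGC read on the opposite strand, at positions -211 and -158 from the start. Paics holds CACGTG at -203 and CCAAT at -23, Rrm1 holds CCAAT at -91 and -45, and Shmt2 holds TTTNNCGC at 29. RefSeq promoters were found for 26 of the 28 genes, without Pfas and Dhodh, as 30 windows. TTTNNCGC occurred in 7 of these 26 genes (26.9%), against 8.48% of the tested genes with a promoter. CACGTG occurred in 5 genes (Atic, Tyms, Paics, Impdh2 and Nme1; 19.2%), against 10.5% of tested genes. CCAAT occurred in 13 genes (50%), against 41.3%, and TGATGNAA in 1 (Prps1; 3.85%), against 3.08%. TTTNNCGC was held by 5.17% of all 32851 RefSeq windows, CACGTG by 7.15%, CCAAT by 37.4% and TGATGNAA by 3.97%. A match describes letters in the window and not binding.

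Gart, a trifunctional enzyme of the early ring steps, read 7.76, 6.59 and 7.99 in RRas2-deficient cells, against 6.78, 6.75, 8.62 and 8.06 in WT cells (-0.11 ± 0.57). The other probes of Gart were dimmer, averaging 5.39 and 3.82 over the 7 arrays, and were not used. Adsl, the lyase that releases fumarate in both ring assembly and the AMP branch, read 7.45, 6.64 and 7.55 in RRas2-deficient cells, against 6.92, 7.01, 7.93 and 7.45 in WT cells (-0.12 ± 0.32). Atic, which adds the last folate-borne carbon and closes the ring to IMP, read 8.08, 6.62 and 7.80 in RRas2-deficient cells, against 6.71, 6.98, 8.63 and 7.93 in WT cells (-0.062 ± 0.55). All 3 were lowest on RRas2-deficient replicate 2 and highest on WT replicate 3, and the genotypes overlapped.

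In the branches to AMP and GMP the differences ran from -0.12 to -0.0038. Adss, which opens the AMP branch, read 8.09, 6.73 and 8.10 in RRas2-deficient cells, against 6.87, 7.25, 8.74 and 8.17 in WT cells (-0.12 ± 0.55). Gmps, which aminates xanthosine monophosphate to GMP, read 7.69, 6.57 and 7.97 in RRas2-deficient cells, against 6.41, 6.76, 8.46 and 8.04 in WT cells, and its means were nearly equal (-0.0038 ± 0.59). The GMP-branch dehydrogenase Impdh1 read 5.16, 5.31 and 5.31 in RRas2-deficient cells, against 5.30, 5.64, 5.31 and 5.19 in WT cells (-0.099 ± 0.13). It was the only member whose mean was lower on the wider than on the narrower arrays (-0.17), and 3 arrays held the identical value.

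Of the pyrimidine enzymes, 3 had lower means in RRas2-deficient cells and 1 a higher mean, none past the test. Cad, the multifunctional enzyme of the opening steps, read 6.95, 6.38 and 7.21 in RRas2-deficient cells, against 6.65, 6.60, 7.50 and 7.18 in WT cells (-0.14 ± 0.29). Umps, which joins the ring to ribose phosphate and makes UMP, read 7.48, 6.11 and 7.40 in RRas2-deficient cells, against 6.61, 6.69, 7.94 and 7.54 in WT cells (-0.20 ± 0.46, 95% interval -1.30 to 0.90). Both were lowest on RRas2-deficient replicate 2. Ctps, which aminates UTP to CTP, read 6.84, 6.44 and 6.81 in RRas2-deficient cells, against 6.52, 6.53, 7.24 and 6.90 in WT cells (-0.10 ± 0.21). Dhodh, the mitochondrial dehydrogenase tied to the respiratory chain, read 6.11, 5.83 and 6.51 in RRas2-deficient cells, against 5.76, 6.16, 6.11 and 6.07 in WT cells (0.13 ± 0.18). Its highest array was RRas2-deficient replicate 3, and its array sets overlapped.

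Of the 3 genes for deoxynucleotides none passed the test, and Rrm1 had the widest gap between array sets of all members. Rrm1, the large subunit of ribonucleotide reductase, read 9.12, 7.46 and 9.40 in RRas2-deficient cells, against 7.42, 7.74, 10.20 and 9.68 in WT cells. Means were 8.66 ± 1.05 (SD, n = 3) in RRas2-deficient cells and 8.76 ± 1.38 (SD, n = 4) in WT cells, and the difference of -0.098 ± 0.83 had a 95% interval of -2.07 to 1.87. That interval is the widest of the 26. Rrm1 lies on chromosome 7, as Rras2 does, at a distance of 113 tested genes. Rrm2, the small subunit, read 8.16, 6.49 and 8.19 in RRas2-deficient cells, against 6.46, 6.90, 8.80 and 8.13 in WT cells (0.043 ± 0.69), while its other probe averaged 3.22 and was not used. Tyms, which makes thymidylate with a folate-borne carbon, read 7.41, 6.55 and 7.08 in RRas2-deficient cells, against 6.65, 7.02, 7.75 and 7.16 in WT cells (-0.13 ± 0.30). In all 3 genes the wider arrays stood above the narrower ones in both genotypes. Nme1, a nucleoside diphosphate kinase, read 5.94, 5.89 and 5.89 in RRas2-deficient cells, against 5.01, 5.54, 6.83 and 5.89 in WT cells (0.087 ± 0.39). Its SD was 0.029 over the deficient arrays (n = 3) and 0.76 over the WT arrays (n = 4). RRas2-deficient replicates 2 and 3 held the identical value.

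Most members followed the array sets. All 4 wider arrays read above all 3 narrower ones for 21 of 26 members (80.8%), against 26.9% of all genes tested. The exceptions were Mthfd1l, Prps1, Impdh1, Dhodh and Nme1, and for no member were all wider arrays below. The median gap, wider minus narrower, was 0.84 over the members and -0.024 over all genes tested. As medians within a genotype it was 0.84 in RRas2-deficient cells and 1.05 in WT cells. WT replicate 3 was the highest array for 21 members (80.8%), as for 26.5% of all genes tested. The lowest was RRas2-deficient replicate 2 for 12 members and WT replicate 1 for 11. Since the sets were read from the same values, these counts are descriptions without a test.

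**Figure D2:**
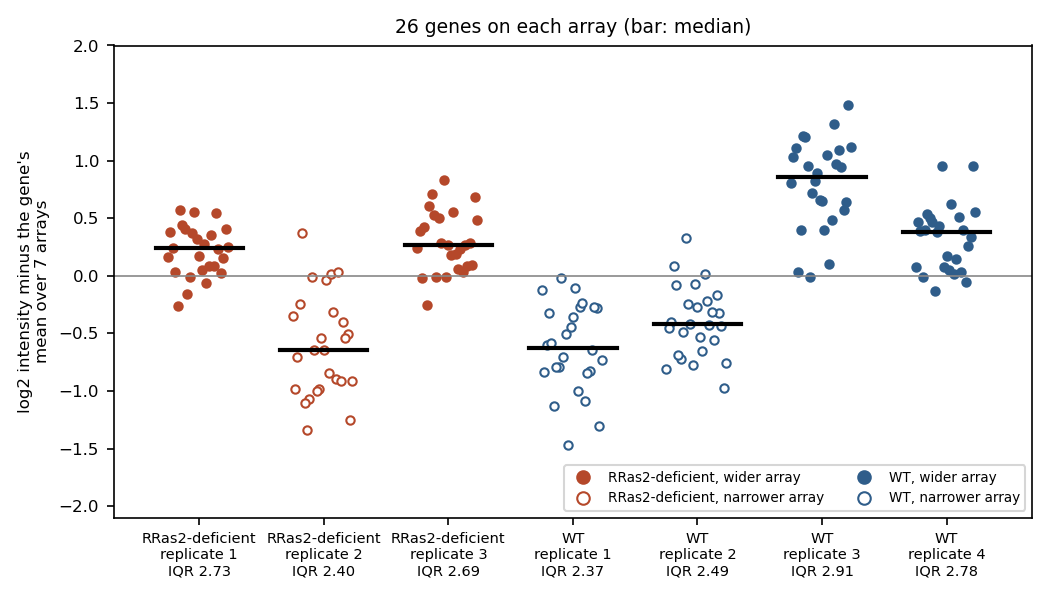
Log2 intensity of each of the 26 genes minus its own mean over the 7 arrays (y axis), by array (x axis, with the interquartile range of that array), with a bar at the median. The medians are 0.24, -0.64 and 0.26 on RRas2-deficient arrays and -0.62, -0.42, 0.86 and 0.38 on WT arrays.

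Other gene groups moved along the same arrays. The 11 measured genes of dividing cells averaged 9.41, 8.26 and 9.57 on RRas2-deficient arrays and 8.42, 8.56, 9.94 and 9.53 on WT arrays. The 11 measured B cell and germinal centre markers averaged 10.06, 9.13 and 9.99 on RRas2-deficient arrays and 9.22, 9.27, 10.37 and 10.13 on WT arrays. Both groups were high where the enzymes were high. The 10 immediate early genes, which cells switch on within minutes of stimulation or handling, averaged 6.20, 8.14 and 6.82 on RRas2-deficient arrays and 7.69, 7.99, 6.24 and 7.16 on WT arrays, and were highest on RRas2-deficient replicate 2 and WT replicates 1 and 2. The averages of the 9 myeloid markers ran from 4.03 (WT replicate 3) to 4.47 on the 4 wider arrays and from 4.42 to 4.47 on the 3 narrower ones. Single markers varied more, with Lyz2 between 3.52 on WT replicate 3 and 5.57 on RRas2-deficient replicate 3. The part of these groups in the members' values was not tested, and in bulk RNA fewer cells of a type and less RNA per cell cannot be told apart.

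Within each array set the members mostly had lower values in RRas2-deficient cells. In the wider set 24 of 26 members had a lower mean in RRas2-deficient cells, against 53% of all genes tested, with a median difference of -0.29. In the narrower set, with 1 deficient array, 19 had a lower value, against 47.3% of all genes, with a median of -0.15. The value was lower in both sets for 18 members (69.2%), against 28.6% of all genes tested, and higher in both for 1, Mthfd1l. The other 7 (Phgdh, Psph, Shmt1, Prps1, Prps2, Dhodh and Nme1) differed in sign between the sets. Prps1 and Nme1 were farthest apart, at -0.66 and -0.45 in the wider set and 0.70 and 0.61 in the narrower set. The members share arrays, so their counts are not independent.

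**Figure D3:**
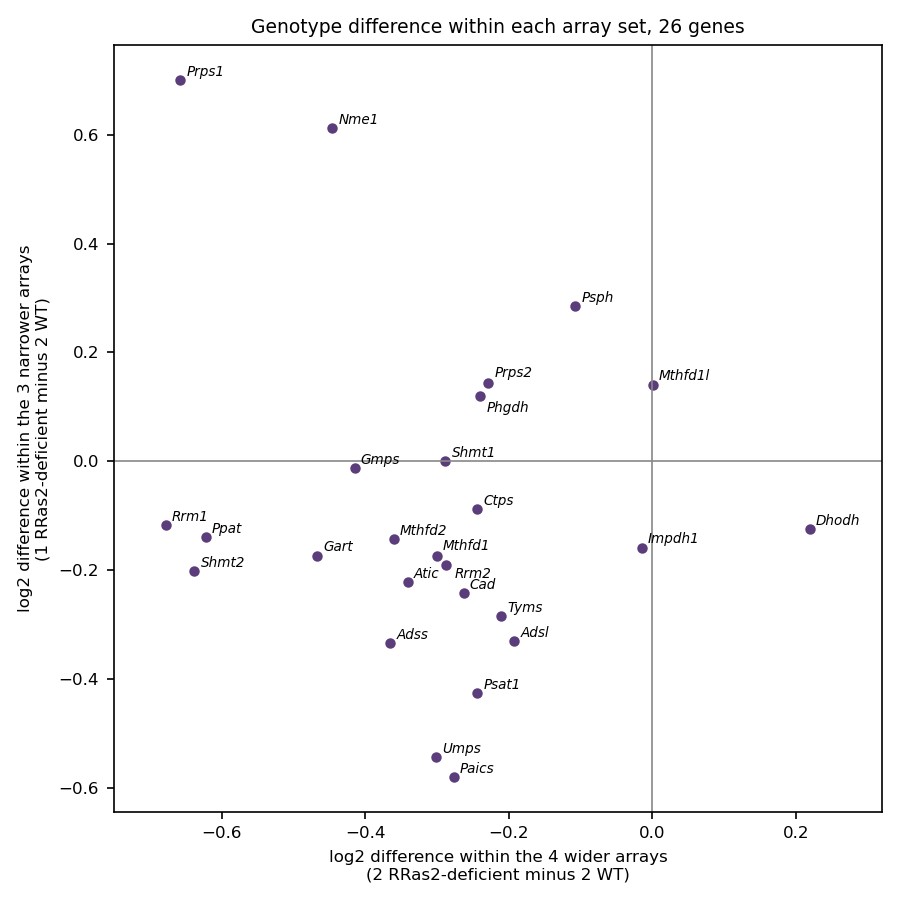
Log2 difference, RRas2-deficient minus WT, within the 4 wider arrays (x axis) and within the 3 narrower arrays (y axis), 1 point per gene. Most points lie in the lower left, where 18 of 26 genes are lower in both sets.

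With array set as a block in limma, 0 of 26 members passed an adjusted p of 0.05, against 0.0124% of all genes tested. At an unadjusted p under 0.05, 4 members (15.4%) were lower, against 6.24% of all genes, and 0 were higher, against 3.89%. Umps differed by -0.40 ± 0.12 (limma adjusted p = 0.378). Mthfd2 differed by -0.27 ± 0.11 (limma adjusted p = 0.460). Rrm1 differed by -0.45 ± 0.19 and Shmt2 by -0.46 ± 0.20, with limma adjusted p of 0.480 and 0.490. Shmt2 and Mthfd2 both belong to the mitochondrial folate arm, but Mthfd1l of the same arm had an estimate of 0.057 ± 0.11. The block estimate was lower in RRas2-deficient cells for 23 of 26 members, against 51% of all genes tested, with a median of -0.25 against -0.0033. Without WT replicate 3 that median was -0.11, and 1 of 26, Umps, was lower at an unadjusted p under 0.05, against 3.78% of all genes in that run. Without WT replicate 4 it was 11 of 26, against 8.40% of all genes.

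In several marker groups the block estimates were also mostly lower. The median was -0.25 over the 11 genes of dividing cells, -0.16 over the 11 B cell and germinal centre markers and -0.29 over the 6 plasma cell markers. At an unadjusted limma p under 0.05, 6.24% of all genes tested were lower. So were 2 genes of dividing cells (Pcna and Mcm3), 4 B cell and germinal centre markers (Rgs13, S1pr2, Cd79a and Ms4a1) and 1 plasma cell marker (Jchain). The median was -0.070 over the 7 tested T cell markers, 0.035 over the 4 tested follicular and marginal zone genes and 0.11 over the 7 tested myeloid markers. None passed the adjusted p, and these genes were singled out after their values were seen. The part of these groups in the members' block estimates was not tested.

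With the interquartile range of each array as a covariate instead of the set, the members stood on both sides of 0. Of the members 12 had a lower and 14 a higher estimate in RRas2-deficient cells, the median was 0.019, and 0 of 26 had an unadjusted limma p under 0.05, against 4.70% of all genes tested. Umps stood at -0.10 ± 0.14, Rrm1 at 0.081 ± 0.15 and Prps2 at 0.39 ± 0.19. Among the wider arrays the interquartile range was 2.73 and 2.69 in RRas2-deficient cells and 2.91 and 2.78 in WT cells, so genotype and array spread cannot be told apart there.

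**Figure D4:**
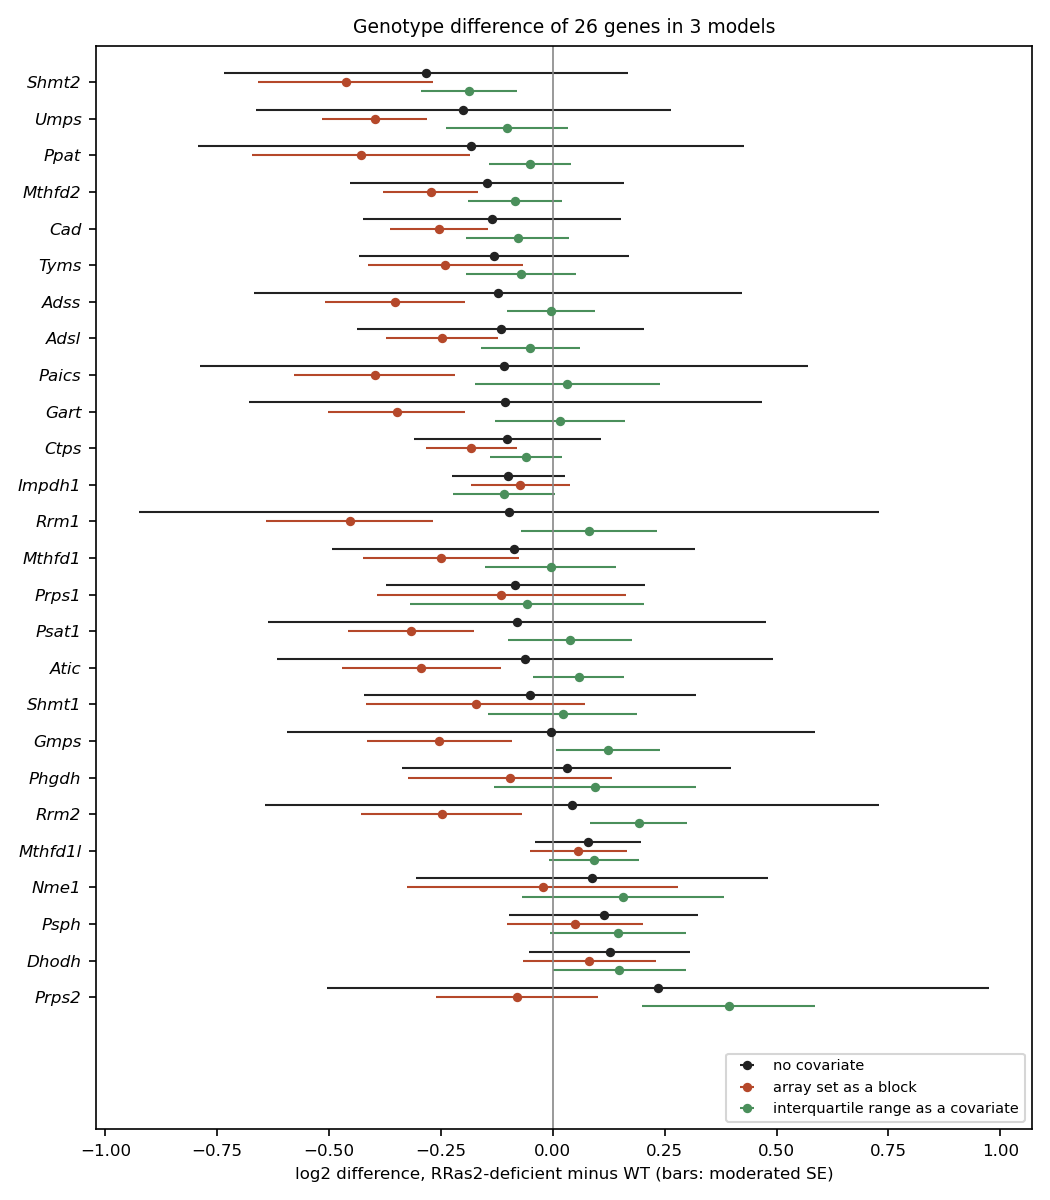
Log2 difference, RRas2-deficient minus WT, of the 26 genes (y axis) under 3 limma models, with moderated standard errors as bars. Estimates with array set as a block lie left of 0 for 23 genes, while those with the interquartile range as a covariate lie on both sides.

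Beyond the 26, other genes of these pathways were taken from a list of 86, of which 71 were measured and 68 tested. Means were higher in RRas2-deficient cells for 38 and lower for 30, against 51.6% of all genes tested with a higher mean. The median difference was 0.029, and 0 passed an adjusted p of 0.05. Without the block the only one with an unadjusted limma p under 0.05 was Mthfs, which returns formyl folate to the cycle, with 4.13, 4.16 and 4.21 in RRas2-deficient cells and 3.90, 3.90, 3.88 and 3.98 in WT cells. These groups did not overlap, and the difference was 0.25 ± 0.073 (limma adjusted p = 1.00), at a level not far above the limit of 3.48. Of all genes tested, 0.818% had an unadjusted limma p under 0.05 without the block, and 1.08% had groups without overlap. With array set as a block 7 of the 68 were lower at an unadjusted limma p under 0.05, against 6.24% of all genes tested. Named after their values were seen, these were Uprt, Hprt, Cmpk1, Prpsap2, Ahcyl1, Adssl1 and Mtr. Their block estimates ran from -0.65 (Uprt) to -0.25 (Mtr). At that p 2 (Mthfs and, named after its value was seen, the adenylate kinase gene Ak1) were higher, against 3.89%. The median was -0.032, and 0 passed the adjusted p. Without the block, the 22 tested folate and methyl cycle genes split into 12 higher and 10 lower, the 16 of purine salvage into 8 and 8, and the 15 of pyrimidine salvage into 7 and 8. Of purine salvage, Adssl1 differed by -0.26 ± 0.11 and the AMP deaminase Ampd3 by 0.18 ± 0.11. Of pyrimidine salvage, the mitochondrial thymidine kinase Tk2 differed by -0.23 ± 0.14 and the cytidine deaminase Cda by -0.19 ± 0.17. The 6 genes of deoxynucleotide pools all had higher means without the block, none past the test, while with the block 4 (Samhd1, Dck, Nudt1 and Dctpp1) had lower estimates and the median was -0.050. Without the block Rrm2b, the p53-inducible small subunit of the reductase, differed by 0.16 ± 0.24. Among 6 regulators Atf4, the amino acid response factor that drives serine synthesis genes, differed by -0.13 ± 0.14 and Mycn, of the MYC family, by 0.065 ± 0.13. The other values named by the same rule were -0.15 ± 0.12 for Cth of the transsulfuration pathway, 0.045 ± 0.11 for the mitochondrial kinase Dguok, -0.19 ± 0.19 for Nme6 and -0.032 ± 0.10 for Nme4.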

How the data were processed

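Total RNA was measured on 1-colour, biotin-labelled arrays of 3 RRas2-deficient and 4 WT samples. Values are log2 intensities as deposited by the authors, made with RMA and oligo, per the submitters' processing notes. Their versions and the genome build are not given. Out of 25349 probes, 22225 had 1 gene symbol in the platform annotation, 616 several and 2508 none. For genes with several probes (640) the brightest by mean stood for the gene. A mean log2 level of 3.48, the 25th percentile, was the lower limit for testing, which removed 5379 genes. Genotypes were compared with limma 3.58.1 (lmFit, eBayes) in R 4.3.3, with Benjamini-Hochberg adjustment over all genes tested at 0.05. The code was tested on simulated data. The number of arrays limits the precision. Members and gene lists were chosen with earlier results of these data known. All measured members are named, with values on every array, as are Rras2 and, of each other pathway group, the 2 tested genes of lowest unadjusted p. No label states a pairing of samples by replicate number, and the main test used none. The array-set block and the interquartile range covariate, other filters, scalings and probe rules, and leaving out each array were the alternatives. Promoters are from RefSeq (GRCm38.p6), and all gene symbols are those of the annotation.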

Additional observations from a re-analysis of the deposited data

How the results depend on the processing

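Over the alternatives run, no member passed an adjusted p of 0.05. Called genes numbered 2 of 16136, and 1 with arrays centred on medians, 0 with a replicate block and 0 with the wider arrays alone; leaving out 1 array gave 0 to 2. Members with an unadjusted p under 0.05 numbered 0, but 4 with array set as a block (10.1% of all genes tested, in either direction) and 1 with the wider arrays alone (8.12% of all genes). With 1 array left out, with or without that block, they numbered 0 to 11, and the run with 11 called 13% of all genes. The members' median was -0.093 and moved to -0.25 with the block, 0.019 with the covariate, -0.29 in the wider arrays alone, 0.040 with a replicate block and -0.36 to 0.22 with 1 array left out. The wider arrays alone and the runs that leave out an array under the block were chosen after seeing the data. Deviations of same-numbered samples from their group means had correlations of -0.59, 0.78 and 0.66. The samples numbered 2 were both narrower arrays, those numbered 3 both wider, and those numbered 1 lay in different sets. These correlations therefore cannot tell pairing from array set. No label states a pairing, and the replicate block leaves out WT replicate 4. The causes of these shifts were not tested, and precision is limited by having 3 and 4 arrays.

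The sign of small differences turned under several alternatives. With a replicate block the turned values were 0.015 (Adss), 0.062 (Atic), 0.064 (Gart), 0.20 (Gmps), 0.025 (Mthfd1), 0.042 (Paics), 0.038 (Prps1), 0.064 (Psat1) and 0.21 (Rrm1). With the interquartile range covariate the turned values were 0.058 (Atic), 0.016 (Gart), 0.12 (Gmps), 0.033 (Paics), 0.038 (Psat1), 0.081 (Rrm1) and 0.022 (Shmt1). After further quantile normalization the turned value was 0.043 (Gmps). With arrays scaled to a common median and interquartile range the turned value was 0.040 (Gmps). With array set as a block the turned values were -0.022 (Nme1), -0.096 (Phgdh), -0.080 (Prps2) and -0.25 (Rrm2). In the wider arrays alone the turned values were -0.45 (Nme1), -0.24 (Phgdh), -0.23 (Prps2), -0.11 (Psph) and -0.29 (Rrm2). With 1 array left out, with or without the array-set block, the values ran over -0.38 to 0.17 (Adsl), -0.49 to 0.33 (Adss), -0.45 to 0.38 (Atic), -0.33 to 0.095 (Cad), -0.25 to 0.046 (Ctps), -0.050 to 0.29 (Dhodh), -0.47 to 0.32 (Gart), -0.41 to 0.42 (Gmps), -0.36 to 0.21 (Mthfd1), -0.36 to 0.062 (Mthfd2), -0.45 to 0.42 (Nme1), -0.60 to 0.53 (Paics), -0.24 to 0.30 (Phgdh), -0.62 to 0.23 (Ppat), -0.66 to 0.038 (Prps1), -0.23 to 0.79 (Prps2), -0.46 to 0.43 (Psat1), -0.11 to 0.26 (Psph), -0.68 to 0.50 (Rrm1), -0.41 to 0.61 (Rrm2), -0.39 to 0.26 (Shmt1), -0.64 to 0.046 (Shmt2), -0.39 to 0.10 (Tyms) and -0.52 to 0.24 (Umps). Impdh1 and Mthfd1l kept their sign in every such run.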
